A study of Mus musculus with 9 samples.

Results

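Rescued and non-rescued mouse tumours with a floxed Yap1 allele were compared by bulk RNA sequencing of tumour tissue at postnatal day 8 or 9. The comparison used 6 of the 9 libraries of the series and 15251 of its 17482 genes, those whose log2 CPM exceeded 0 in 3 or more of the 9. CPM is a gene's read count scaled to the size of its library, and every level below is in log2 CPM. The rescued group, YSGr, and the non-rescued group, YSGnr, each had 3 libraries and shared the genotype fYap1;fSMO-M2;hGFAPcre. A further 3 libraries of the group SG, with the genotype fSMO-M2;hGFAPcre, entered the model to estimate the spread and served as a reference level. SMO-M2 and the Cre driver were thus present in all 3 groups, and no tissue without them was used here. What was scored as rescue, the sex of the animals and the number of animals behind a library are not given in the labels. The p-values therefore measure the spread between libraries, which may be technical. That spread was pooled per gene over the 3 groups and is not that of the 6 compared libraries alone. SG was tighter at genes such as Shank1 (SD 0.14 against 0.69 in YSGr and 1.24 in YSGnr), though not at every gene. In a fit of the 6 libraries alone, no gene passed the threshold used below. Values of a group are listed in the order of replicates 1, 2 and 3, means are given ± SD with n = 3, and a difference is YSGr minus YSGnr.

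Cerebellar granule neuron progenitors divide in response to Sonic hedgehog, which is secreted by Purkinje cells and acts through the receptor Patched, the membrane protein Smoothened and the GLI transcription factors. Progenitors that leave the cell cycle switch on a sequence of neuronal genes and end as granule neurons, whose synapses use cerebellins and the alpha 6 subunit of the GABA-A receptor. SMO-M2 is an always-active form of Smoothened and drives growth of progenitors into a Hedgehog-type tumour. The hGFAPcre transgene uses the promoter of human GFAP, which is active in neural progenitors and glia, so recombination is not restricted to granule cells. Yap1 encodes a transcriptional coactivator that the Hippo kinase cascade holds in the cytoplasm and that binds DNA through TEAD factors. The tissue was recorded only as MB. Granule lineage markers were high in all 6 libraries, with Zic1 between 9.66 and 10.51 and Pax6 between 8.0 and 8.35.

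Libraries within each group differed from each other. The median absolute difference over the tested genes was 0.134 log2 units between YSGr replicates 1 and 2 and 0.204 between YSGnr replicates 2 and 3. YSGr replicate 3 lay 0.445 and 0.472 from the other YSGr libraries, and only 0.329, 0.280 and 0.286 from YSGnr replicates 1, 2 and 3. YSGnr replicate 1 lay 0.423 and 0.454 from the other YSGnr libraries. Its effective depth was 3.91 M reads, against 18.1 to 32.3 M in the other 8 libraries. The transcripts Yam1 and Lars2 took 63.4% of its reads, against 1.98% to 8.15% elsewhere. The Spearman rho between transcript length and the difference from SG was 0.14, 0.13 and -0.26 over genes in the YSGr libraries and -0.01, -0.35 and -0.34 in the YSGnr libraries. Xist, which silences an X chromosome in female cells, was measured at 10.66, 10.48 and 9.81 in YSGr and at 10.81, -0.68 and -0.25 in YSGnr. The Y-linked helicase gene Ddx3y did not exceed the table's minimum of -3.52 in any YSGr library or in YSGnr replicate 1, and stood at 5.38 and 4.97 in YSGnr replicates 2 and 3. YSGr replicate 3 and YSGnr replicate 1 therefore stand apart from their groups, and only YSGnr replicate 1 is like the YSGr libraries in its sex-linked transcripts. The SG libraries had Xist at -0.77, -1.25 and -1.38 and Ddx3y at 5.82, 5.84 and 5.99, like YSGnr replicates 2 and 3. A difference of a YSGr library or of YSGnr replicate 1 from the SG level is therefore also one between high and low Xist.

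**Figure D1:**
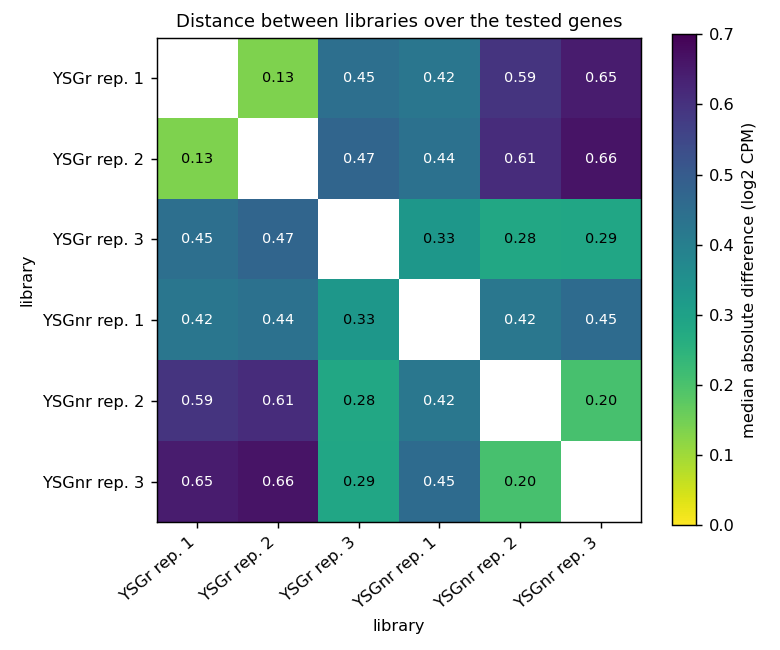
Median absolute difference in log2 CPM over the tested genes for each pair of the 6 libraries; both axes list the libraries and the colour gives the distance. YSGr replicates 1 and 2 form the closest pair at 0.134, and YSGr replicate 3 is closer to YSGnr replicates 2 and 3 (0.280 and 0.286) than to its own group.

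Yap1 (ENSMUSG00000053110.13, chromosome 9, 7931999 to 8004596, minus strand, GRCm38) was examined first as the targeted gene. It stood at 4.44, 3.31 and 2.79 in YSGr and at 2.79, 2.57 and 1.99 in YSGnr. The groups met at 2.79 without crossing, YSGr replicate 1 was the highest, and all 6 libraries lay below the SG mean of 5.06 ± 0.05. The difference of 1.06 (SE 0.38) was not called (limma, adjusted p = 0.0959). Leaving out YSGr replicate 1 lowered it to 0.60, and leaving out YSGr replicate 3 together with YSGnr replicate 1 raised it to 1.59, which was called (limma, adjusted p = 0.00139). The latter fit leaves out libraries picked because they stand apart, which narrows the spread. Reads over deleted and retained exons are summed in such a gene value, so it does not give the share of cells with the deletion.

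In all, 776 genes were higher in YSGr (5.09% of those tested) and 134 were lower (0.879%), at a Benjamini-Hochberg adjusted p below 0.05 in a limma fit over the 9 libraries. Of these, 505 and 59 differed by at least 2-fold. The median difference over all tested genes was 0.01. The 3 YSGr libraries all lay above the 3 YSGnr libraries at 2286 genes (15.0%) and all below them at 1138 (7.46%), and the 910 called genes were all among these. The calls lay near the threshold: 435 of the 910 had an adjusted p above 0.04, and the smallest was 0.000808. YSGr replicate 3 was the lowest YSGr library at 738 of the 776 higher genes and the highest at 121 of the 134 lower ones, so at most called genes it was the YSGr library nearest to YSGnr. YSGnr replicate 1 was the highest YSGnr library at 507 of the 776 higher genes.

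The counts turned on single libraries. Without YSGr replicate 3 the fit called 3387 genes higher and 3141 lower, and without YSGnr replicate 1 it called 2556 and 2169. Leaving out any 1 of the other 7 libraries, the SG libraries included, left between 1 and 10 called genes. Leaving out YSGr replicate 3 and YSGnr replicate 1 together, 4873 genes were higher (32.0%) and 4994 lower (32.7%), and every one of the 910 genes was called again. Both were left out because their values stood apart, so a narrower spread and more calls follow in part from that choice. The YSGr libraries that remained had high Xist and the YSGnr libraries that remained had low Xist. Calls of this fit, here and elsewhere, are therefore no separate support for a difference. A fit without YSGnr replicates 2 and 3 compared only libraries with high Xist, and rested on YSGnr replicate 1 alone for its group, with the spread taken from the other groups. It called 155 genes higher (1.02%) and 64 lower (0.42%), among them 29 of the 776 and 4 of the 134. All 910 genes kept the sign of the difference in that fit and in both fits without YSGr replicate 3. This was fixed in advance, because their groups did not overlap. Xist, the Y-linked genes, depth and the length trend moved with the libraries left out, and their part in the calls was not tested beyond these fits.

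**Figure D2:**
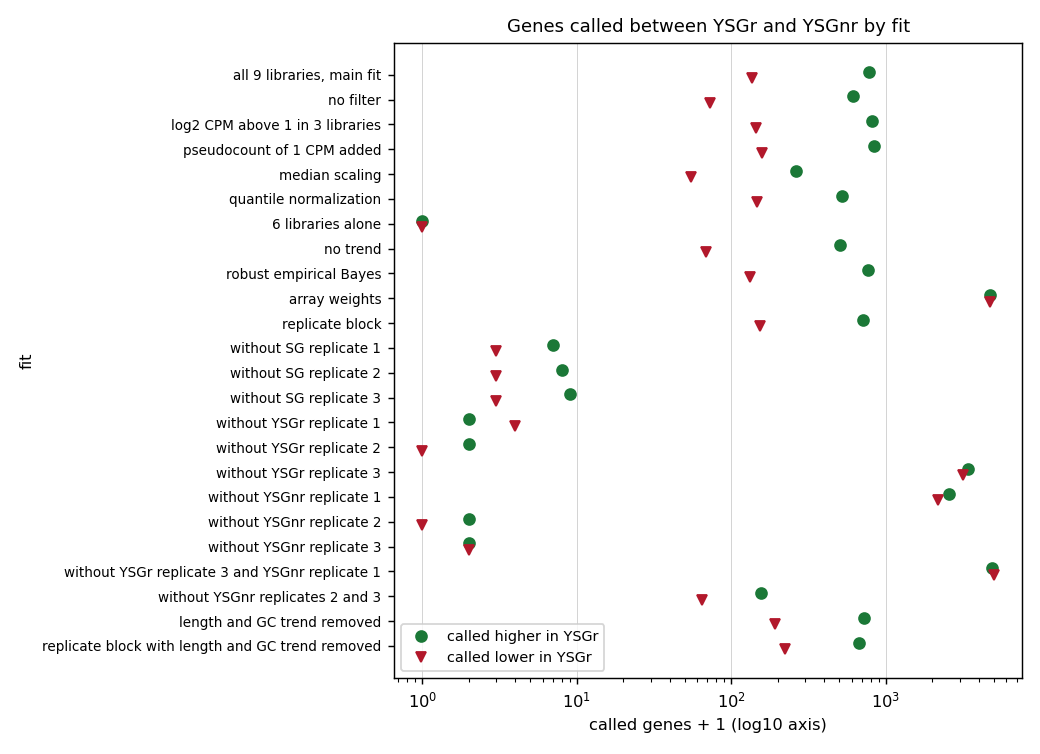
Number of genes called higher (circles) or lower (triangles) in YSGr than in YSGnr in the main fit and in each alternative fit; the horizontal axis is the count plus 1 on a log10 scale. Counts range from 0 with the 6 libraries alone to 4873 higher and 4994 lower without YSGr replicate 3 and YSGnr replicate 1.

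The 15 largest increases in YSGr joined neuronal genes to genes better known from other tissues. The neuronal ones included Cacna1i, Shank1, Skor2 and Shh. Cacna1i, a T-type calcium channel gene, stood at 4.83, 5.28 and 3.96 in YSGr and at 3.40, 1.56 and 1.99 in YSGnr. The groups were apart, with YSGr replicate 3 and YSGnr replicate 1 the nearest libraries, and the difference was 2.37 (SE 0.47, limma, adjusted p = 0.0348). Shank1, a postsynaptic scaffold gene, stood at 7.96, 7.83 and 6.71 against 6.61, 4.23 and 4.80. It rose by 2.28 (SE 0.55, limma, adjusted p = 0.0465), although YSGr replicate 3 and YSGnr replicate 1 nearly met. Sypl2, a synaptophysin-like gene best known from skeletal muscle, stood at 4.17, 3.97 and 2.97 against 1.40, 1.22 and 1.31, a rise of 2.39 (SE 0.31, limma, adjusted p = 0.0222). Its YSGnr libraries lay close together and near the SG mean of 1.14 ± 0.28.

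Among the other large increases, Trp73, of the p53 family, stood at 4.06, 4.46 and 2.51 in YSGr and at 2.30, 0.27 and 0.89 in YSGnr, and rose by 2.52 (SE 0.61, limma, adjusted p = 0.0468). Slc22a6, an organic anion transporter gene, stood at 3.71, 3.06 and 2.27 against 0.91, 0.06 and -0.31, and rose by 2.80 (SE 0.44, limma, adjusted p = 0.0267). Rassf6, of the Ras association domain family, rose by 2.92 (SE 0.70, limma, adjusted p = 0.0459). It stood at 1.33, 1.75 and 0.44 against -0.74, -0.99 and -3.52. Its level rested on few reads, back-calculated as 71, 88 and 29 in YSGr and as 2, 10 and 0 in YSGnr. These reads are not scaled to depth, which was lowest in YSGnr replicate 1. Nphs1 (nephrin), Mrgprf, Pgm5, Ahnak2, the progesterone receptor gene Pgr, Hif3a and Fibcd1 completed the 15 largest, with differences between 2.18 and 2.69. In each of these 7 genes YSGr replicate 3 was the lowest YSGr library.

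Gm26821, a predicted gene (ENSMUSG00000097038.1, chromosome 7, 18962415 to 18965173, minus strand, GRCm38), separated the groups most clearly and was called in each of the 6 fits that left out a YSGr or YSGnr library. It had 114, 96 and 124 back-calculated reads in YSGr and 0, 0 and 1 in YSGnr, while the SG libraries had 46, 69 and 58. The 3 YSGr libraries were thus alike, YSGr replicate 3 included, and the YSGnr libraries were at or near 0. These reads are not scaled to depth, and YSGnr replicate 1 had an effective depth of only 3.91 M. On the log2 scale the difference was 5.42 (SE 0.35, limma, adjusted p = 0.000808), a size that depends on the authors' added count. Among the libraries with high Xist it was 5.63 and was called (limma, adjusted p = 0.00311). Whether reads of an overlapping gene contribute cannot be read from these values.

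Olig3 (ENSMUSG00000045591.6, chromosome 10, 19356533 to 19358604, plus strand, GRCm38), a transcription factor gene of the rhombic lip, from which granule progenitors arise, had the largest decrease. It stood at 1.51, 0.82 and 2.32 in YSGr and at 4.41, 5.11 and 5.49 in YSGnr, with an SG mean of 5.61 ± 0.17. The YSGnr libraries lay below the SG mean, replicate 1 the furthest and replicate 3 the nearest, and all 3 YSGr libraries were far below them. The difference was -3.46 (SE 0.38, limma, adjusted p = 0.0158). Among the libraries with high Xist it was -2.86 and missed the threshold (limma, adjusted p = 0.0562), and it was -4.14 with YSGr replicate 3 and YSGnr replicate 1 left out.

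Pgf, which encodes placental growth factor, a ligand of the VEGF receptor FLT1, stood at 1.40, 1.24 and 3.55 against 3.90, 4.24 and 4.55 and fell by 2.17 (SE 0.52, limma, adjusted p = 0.0465). YSGr replicate 3 was much closer to YSGnr than to the other YSGr libraries. Cybb, the NADPH oxidase subunit gene of phagocytes, stood at -0.44, -0.08 and 0.62 against 1.77, 2.02 and 2.68 and fell by 2.13 (SE 0.35, limma, adjusted p = 0.0269). Scx, a tendon transcription factor gene, fell by 1.99 (SE 0.42, limma, adjusted p = 0.0387). Lpo, the lactoperoxidase gene, was the steadiest, at 2.43, 2.85 and 2.86 against 4.02, 4.14 and 4.13, and fell by 1.38 (SE 0.16, limma, adjusted p = 0.0186). Smc2, a condensin subunit gene that compacts mitotic chromosomes, stood at 6.56, 6.29 and 7.53 against 8.01, 8.35 and 8.07 and fell by 1.35 (SE 0.28, limma, adjusted p = 0.0368). Frmd4b, Zbtb42, Usp44, Murc, Adhfe1, Duxbl3, Ms4a6c and Rbpsuh-rs3 also fell, by 1.29 to 1.82. The last 3 have close copies in the genome, and their values are uncertain for that reason.

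Markers of mature granule neurons had the largest share of called genes among the lists examined, just above Purkinje cell markers. Of 20 tested genes 13 were higher in YSGr, where 5.09% of all genes were, none was lower, and the values of all 20 were higher. The median difference was 1.49 against 0.01 over all genes. Relative to the SG mean, the list median stood at 1.96, 2.03 and 0.98 in the YSGr libraries and at 0.67, -0.06 and 0.08 in the YSGnr libraries. The order of the libraries was therefore the same as at most called genes, with YSGr replicate 3 lowest and YSGnr replicate 1 highest of its group. Among the libraries with high Xist 1 of the 20 was called higher, against 1.02% of all genes, and the median was 1.02. In bulk tissue a larger share of granule neurons and more RNA of these genes per cell cannot be told apart.

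**Figure D3:**
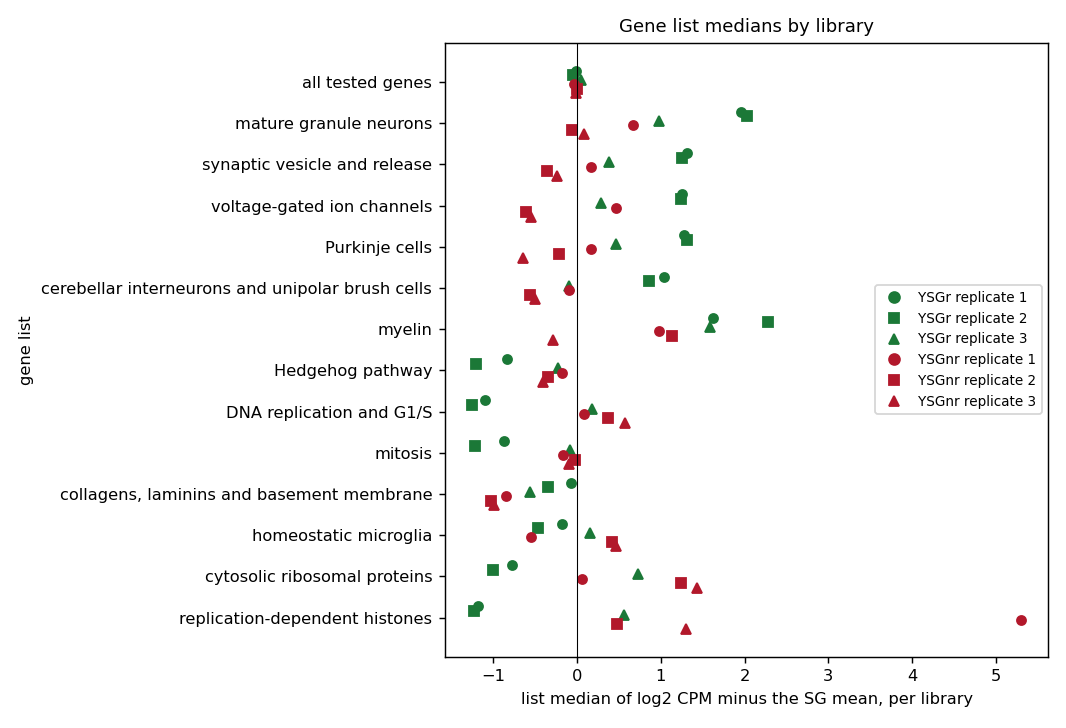
Median of log2 CPM minus the SG mean over the tested members of each gene list, for each of the 6 libraries; the vertical line marks the SG mean. The granule neuron list stands between 0.98 and 2.03 in YSGr and at most at 0.67 in YSGnr, while the Hedgehog, replication and mitosis lists are low in YSGr replicates 1 and 2 and near YSGnr in YSGr replicate 3.

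Cbln3 (ENSMUSG00000040380.14, chromosome 14, 55878913 to 55884392, minus strand, GRCm38), a cerebellin gene expressed by granule neurons, had the smallest adjusted p of the list. It stood at 6.39, 6.68 and 6.33 in YSGr and at 5.13, 4.49 and 4.89 in YSGnr, with an SG mean of 3.14 ± 0.05. Here the 3 YSGr libraries lay close together, YSGr replicate 3 included. The difference was 1.63 (SE 0.18, limma, adjusted p = 0.0158), and among the libraries with high Xist it was 1.33 and was called (limma, adjusted p = 0.0343). Gabra6, the alpha 6 subunit gene of the GABA-A receptor, stood at 5.86, 6.23 and 5.36 against 4.61, 3.92 and 4.16 and rose by 1.59 (SE 0.25, limma, adjusted p = 0.0267). Both groups were above the SG mean of this gene, 2.76 ± 0.22.

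Among genes of glutamate signalling on the list, Grm4, Slc17a7 and Grin2c were called and Grin2a was not. Grm4, a metabotropic glutamate receptor gene of granule neuron terminals, stood at 7.79, 7.67 and 7.14 against 6.49, 4.50 and 5.09, the largest rise of the list at 2.17 (SE 0.42, limma, adjusted p = 0.0339). Slc17a7, the vesicular glutamate transporter VGLUT1, stood at 7.39, 7.61 and 7.20 against 6.25, 5.19 and 6.26 and rose by 1.50 (SE 0.33, limma, adjusted p = 0.0399). Grin2c, an NMDA receptor subunit gene, rose by 1.07 (SE 0.21, limma, adjusted p = 0.0339), from 4.28, 3.50 and 4.0 in YSGnr to 4.88, 5.16 and 4.93. Vsnl1, a calcium sensor gene, rose by 1.75, Chn2 by 1.71, Etv1 by 1.31, Neurod2 by 1.23, Gabrd by 1.13 and Cbln1 by 1.01. Gabrb2, Grin2a, Fat2, Kcnd2, Camk4, Tiam1 and Calb2 were not called. In the first 6 of these a value of YSGnr replicate 1 was above YSGr replicate 3, as with Camk4 at 8.43, 8.46 and 6.54 against 6.68, 5.81 and 5.76.

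**Figure D4:**
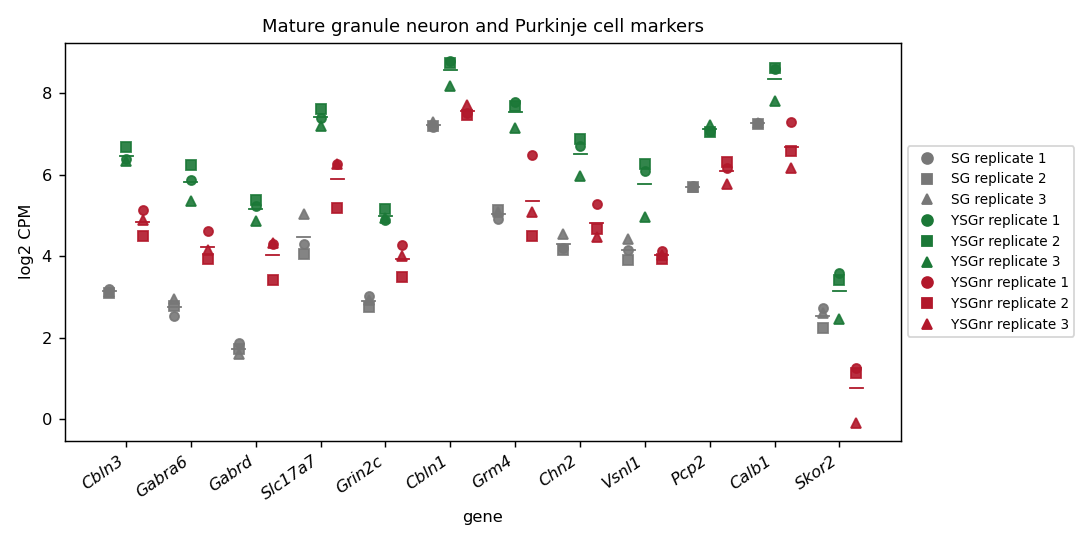
Levels in log2 CPM of 9 granule neuron genes and of Pcp2, Calb1 and Skor2, Purkinje cell genes, in each library; point shapes give the replicate and short lines the group means. All 12 genes have the 3 YSGr libraries above the 3 YSGnr libraries, and Cbln3 has them at 6.33 to 6.68 against 4.49 to 5.13.

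Synaptic genes showed the same direction. Of 21 genes of synaptic vesicles and release 11 rose, against 5.09% of all genes, none fell and 15 had the YSGr libraries higher without overlap, against 15.0%. The median difference was 1.21, and among the libraries with high Xist it was 0.80 with none called. Unc13c, a priming factor of cerebellar synapses, stood at 6.20, 6.38 and 4.88 in YSGr and at 4.56, 3.69 and 3.71 in YSGnr and rose by 1.83 (SE 0.39, limma, adjusted p = 0.0386). Snap25, a SNARE gene, stood at 7.96, 8.19 and 6.74 against 6.34, 6.30 and 5.85 and rose by 1.47 (SE 0.33, limma, adjusted p = 0.0423). Syp, which encodes the vesicle protein synaptophysin, stood at 8.86, 8.82 and 8.29 against 7.74, 7.68 and 7.86 and rose by 0.90 (SE 0.17, limma, adjusted p = 0.0334). Syt1, Syt2, Syn2, Vamp2, Cplx1, Sv2a and Rab3a rose by 0.75 to 1.53. Cplx2, a complexin gene, had a difference of -0.04 and Sv2b one of 0.09, so the list did not move as a block.

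Of 22 voltage-gated ion channel genes 4 rose, against 5.09% of all genes, and 21 had higher values, with a median difference of 1.18. Scn2b, a sodium channel beta subunit gene, rose by 1.76 (SE 0.34, limma, adjusted p = 0.0329) and the calcium channel gene Cacna1a, strong in Purkinje and granule cells, by 1.70 (SE 0.36, limma, adjusted p = 0.0387). With YSGr replicate 3 and YSGnr replicate 1 left out, 20 of the 22 were called higher, against 32.0% of all genes. Among the libraries with high Xist 1 of the 22 was called, and the median was 0.38.

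Markers of Purkinje cells, the source of Sonic hedgehog in the cerebellum, rose at 9 of 14 tested genes, against 5.09% of all genes, and fell at none, with a median difference of 1.09. With high Xist libraries alone 2 of the 14 were called higher, against 1.02% of all genes, and the median was 0.80. Pcp2, a Purkinje cell protein gene, stood at 7.08, 7.05 and 7.21 in YSGr and at 6.16, 6.32 and 5.77 in YSGnr and rose by 1.03 (SE 0.15, limma, adjusted p = 0.0244). In this gene YSGr replicate 3 was the highest library. Calb1, the calbindin gene, stood at 8.60, 8.62 and 7.80 against 7.30, 6.57 and 6.15 and rose by 1.67 (SE 0.30, limma, adjusted p = 0.0297). Skor2, a transcriptional corepressor gene of Purkinje cells, stood at 3.59, 3.41 and 2.45 against 1.25, 1.14 and -0.08 and rose by 2.38 (SE 0.41, limma, adjusted p = 0.0272). The YSGnr mean of Skor2, 0.77 ± 0.74, was below the SG mean of 2.53 ± 0.25, whereas that of Pcp2, 6.08 ± 0.28, was above its SG mean of 5.70 ± 0.00. Itpr1, Car8, Gad1, Pcp4 and Slc1a6 rose by 0.80 to 1.67. Foxp2, a transcription factor gene also used as a Purkinje marker, had a difference of -0.77 and was not called (limma, adjusted p = 0.0737).

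Of 17 markers of cerebellar interneurons and unipolar brush cells 9 rose, against 5.09% of all genes, and none fell, with a median difference of 1.31. Among the libraries with high Xist the median was 0.77 and none was called. Pax2, which marks interneuron precursors, stood at 5.08, 4.92 and 3.45 against 3.33, 2.18 and 1.68 and rose by 2.09 (SE 0.48, limma, adjusted p = 0.0436). Gad2, a GABA-synthesizing enzyme gene, stood at 5.59, 5.66 and 4.05 against 3.35, 3.67 and 3.02 and rose by 1.75 (SE 0.39, limma, adjusted p = 0.0403). Eomes, the marker of unipolar brush cells, stood at 5.0, 5.0 and 3.77 against 3.50, 2.99 and 3.24 and rose by 1.35 (SE 0.31, limma, adjusted p = 0.0431). Tfap2b, Slc32a1, Lhx5 and Kit rose by 1.01 to 1.66. In Pax2 the SG mean, 4.37 ± 0.06, was closer to YSGr than to YSGnr. Genes of early granule neuron differentiation gave no call among 16, with values higher in YSGr at 9 and lower at 7. Dcx, Neurod1 and Cntn2 stood high in YSGr replicates 1 and 2 alone, as with Neurod1 at 9.48, 9.18 and 8.0 against 8.49, 8.13 and 7.83. Mycl, with the largest difference of the list, went the other way, at 6.17, 5.74 and 7.70 against 7.61, 8.18 and 8.26. Its difference of -1.48 (SE 0.43) was not called (limma, adjusted p = 0.0650).

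Hedgehog pathway genes gave few calls. Of 18 tested genes 2 rose, the ligand gene Shh and the coreceptor gene Cdon, and none fell. That is near the shares of all genes, 5.09% and 0.879%, and the median difference was -0.82. Shh stood at 1.76, 1.51 and 0.12 in YSGr and at -0.74, -0.80 and -2.45 in YSGnr and rose by 2.46 (SE 0.57, limma, adjusted p = 0.0430). Cdon stood at 3.74, 3.40 and 2.51 against 1.66, 2.07 and 1.72 and rose by 1.40 (SE 0.31, limma, adjusted p = 0.0412). The YSGr libraries lay below all YSGnr libraries at 2 of the 18, against 7.46% of all genes, namely Sfrp1, a secreted Wnt modulator gene, and Hhat, the acyltransferase gene that modifies the ligand. Gli1, the transcription factor gene that reports pathway activity, stood at 5.12, 5.01 and 7.57 against 7.49, 7.30 and 7.42, with an SG mean of 7.63 ± 0.14. YSGr replicates 1 and 2 were more than 2 log2 units below the other 4 libraries, and YSGr replicate 3 was the highest of the 6. The difference of -1.51 (SE 0.56) was not called (limma, adjusted p = 0.106) and was -2.30 and called with YSGr replicate 3 and YSGnr replicate 1 left out (limma, adjusted p = 4.9e-07). That fit leaves out libraries picked because they stand apart, and those that remain also differ in Xist.

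Further genes had the arrangement of Gli1. Hhip, a Hedgehog-binding inhibitor gene, stood at 2.67, 2.76 and 4.61 against 4.84, 5.01 and 4.53. Ccnd1, the cyclin D1 gene, stood at 6.47, 6.22 and 8.60 against 8.23, 8.78 and 8.66. Atoh1, the transcription factor gene that keeps granule progenitors immature, stood at 3.89, 3.34 and 6.89 against 6.25, 6.31 and 6.53. In each of these 3 genes YSGr replicate 3 lay within or above the range of YSGnr, and none was called (limma, adjusted p = 0.0715, 0.0970 and 0.153). Ptch1, Smo, Boc, Gas1, Mycn and Tead2, the TEAD factor gene of progenitors, were arranged likewise. With the 2 libraries that stand apart left out, 10 of the 18 Hedgehog genes were lower and 5 higher, against 32.7% and 32.0% of all genes. Of 16 progenitor genes 1 rose and none fell, against 5.09% and 0.879% of all genes.

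**Figure D5:**
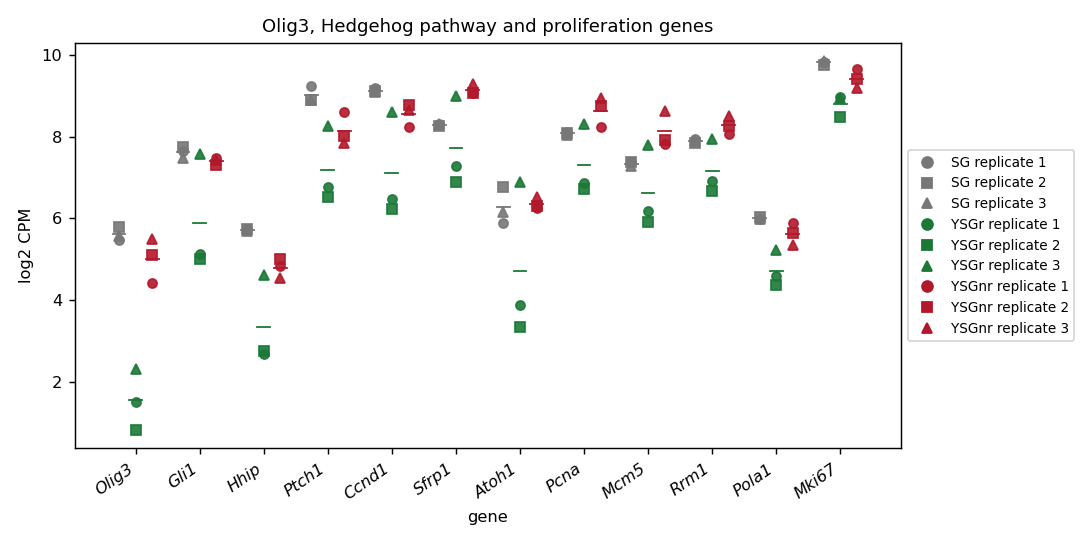
Levels in log2 CPM of Olig3, Hedgehog pathway, progenitor and proliferation genes in each library; point shapes give the replicate and short lines the group means. Olig3 is low in all 3 YSGr libraries (0.82 to 2.32), whereas Gli1 is low in YSGr replicates 1 and 2 (5.12 and 5.01) and at 7.57 in YSGr replicate 3.

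Genes of DNA replication were, by their list median, arranged as Gli1 was. Of 24 tested genes 1 fell, Pola1, against 0.879% of all genes, and none rose. The values of all 24 were lower in YSGr, with a median difference of -0.98. The 3 YSGr libraries lay below all YSGnr libraries at 9 of the 24, against 7.46% of all genes. Pola1, a DNA polymerase alpha subunit gene, stood at 4.58, 4.37 and 5.22 against 5.89, 5.64 and 5.34 and fell by 0.90 (SE 0.22, limma, adjusted p = 0.0480). Mcm5, of the replicative helicase, stood at 6.17, 5.92 and 7.79 against 7.83, 7.92 and 8.64, and its difference of -1.50 (SE 0.43) was not called (limma, adjusted p = 0.0650). Orc1, the origin recognition subunit gene, which was not on the list, stood at 1.47, 1.19 and 2.78 against 3.79, 3.43 and 3.49 and fell by 1.76 (SE 0.36, limma, adjusted p = 0.0368). Relative to SG the median of the list was -1.10, -1.25 and 0.18 in YSGr and 0.08, 0.37 and 0.57 in YSGnr. Without YSGr replicate 3 and YSGnr replicate 1, 23 of the 24 were called lower, against 32.7% of all genes. With high Xist libraries alone none was called, and the median was -0.89.

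Promoters of this list, and that of Orc1, are shown. Many list members carry the letters bound by E2F factors, which drive genes of S phase. The members were chosen as replication genes, so how often they carry these letters describes the list and not the comparison. Whether E2F factors had a part in the differences was not tested. The letters searched, on both strands, were TTTCCCGC, TTTCGCGC, TTTGCCGC and TTTGGCGC, in RefSeq windows (GRCm38.p6) from 250 bases before to 50 after a start. They were found in 9 of the 22 windows that matched 19 of the 24 replication genes (40.9%). The share was 3.65% in windows of tested genes and 2.26% in all 32851 windows. The genes were Cdc6, Cdt1, E2f2, Mcm3, Mcm5, Mcm6, Mcm7, Pola1 and Uhrf1. The 250 bases before the start are given 5′ to 3′ with the matches in capitals, for Orc1 (chr4:108579204-108579453, plus strand, a match beginning 27 bases before the start), Mcm5 (chr8:75109259-75109508, plus strand, 2 overlapping matches from 153 and 149 bases before it) and Cdc6 (chr11:98907901-98908150, plus strand, 138 bases before it).
Orc1: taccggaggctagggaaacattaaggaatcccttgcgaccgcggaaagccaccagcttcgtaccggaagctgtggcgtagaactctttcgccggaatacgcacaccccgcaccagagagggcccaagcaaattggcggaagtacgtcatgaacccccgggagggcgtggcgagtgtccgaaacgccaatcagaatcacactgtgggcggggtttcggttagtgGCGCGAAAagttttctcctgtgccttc
Mcm5: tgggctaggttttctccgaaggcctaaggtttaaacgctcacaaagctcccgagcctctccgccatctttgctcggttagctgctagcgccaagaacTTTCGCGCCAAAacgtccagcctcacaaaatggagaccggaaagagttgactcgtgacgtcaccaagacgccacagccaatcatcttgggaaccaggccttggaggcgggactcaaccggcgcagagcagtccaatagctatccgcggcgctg
Cdc6: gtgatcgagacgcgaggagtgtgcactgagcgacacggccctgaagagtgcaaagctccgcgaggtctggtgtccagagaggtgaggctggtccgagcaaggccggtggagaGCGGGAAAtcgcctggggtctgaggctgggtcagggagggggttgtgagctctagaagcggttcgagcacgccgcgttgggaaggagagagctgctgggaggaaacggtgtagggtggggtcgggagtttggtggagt
Such matches describe letters in a window and are not evidence of binding. The granule neuron list had none of these letters in the 20 windows that matched 12 of its genes. The letters TTGGC of the nuclear factor I family were in 13 of those 20 windows (65.0%) and in 63.6% of the replication windows. They were in 49.2% of the windows of tested genes and in 46.7% of all windows. Gabra6 had them 49 bases before its start (chr11:42321073-42321322, minus strand).
Gabra6: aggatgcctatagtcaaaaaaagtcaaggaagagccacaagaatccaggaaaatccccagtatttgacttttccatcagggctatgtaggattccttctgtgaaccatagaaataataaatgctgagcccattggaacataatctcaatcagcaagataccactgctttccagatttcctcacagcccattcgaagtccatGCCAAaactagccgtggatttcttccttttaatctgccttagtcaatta

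Of 24 mitosis genes none was called and all 24 had lower values in YSGr, with a median difference of -0.66, and 4 had the YSGr libraries lower without overlap, against 7.46% of all genes. Mki67, the proliferation marker, stood at 8.96, 8.48 and 8.94 against 9.65, 9.41 and 9.19, and its difference of -0.62 (SE 0.19) was not called (limma, adjusted p = 0.0728). Here YSGr replicate 3 was with its group, unlike at Cdk1, the mitotic kinase gene, with 5.44, 5.17 and 6.79 against 6.32, 6.93 and 7.06. Without YSGr replicate 3 and YSGnr replicate 1, 21 of the 24 were called lower, against 32.7% of all genes. Cytosolic ribosomal protein genes also had lower values at 35 of 35 and no call, with list medians relative to SG of -0.78, -1.0 and 0.73 in YSGr and 0.06, 1.24 and 1.43 in YSGnr. These are short transcripts, and the libraries with the higher medians were those with a negative length trend. With length and GC trends removed the list median moved from -1.24 to -1.03. Without YSGr replicate 3 and YSGnr replicate 1 it was -2.19 and 35 of 35 were called lower, against 32.7% of all genes. It was -0.44 with none called among the libraries with high Xist.

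Myelin genes had no call among 14, but 11 had the 3 YSGr libraries above the 3 YSGnr libraries, against 15.0% of all genes, and the median difference was 1.15. Mobp, a myelin structural protein gene, stood at 7.52, 8.27 and 7.62 against 6.98, 7.02 and 5.15 and was not called (limma, adjusted p = 0.0910). Mbp, the myelin basic protein gene, stood at 10.17, 10.82 and 10.35 against 9.63, 9.83 and 8.47 and was not called (limma, adjusted p = 0.0900). YSGnr replicate 3 was the low library in both, and the other YSGnr libraries lay above the SG mean of Mbp, 8.56 ± 0.51. Among 11 oligodendrocyte progenitor genes Gpr17, a receptor gene of cells about to differentiate, rose by 1.21 (SE 0.21, limma, adjusted p = 0.0278), and Pdgfra, the growth factor receptor gene of dividing progenitors, fell by 1.26 (SE 0.25, limma, adjusted p = 0.0347). Over all genes 5.09% rose and 0.879% fell. Gpr17 stood at 7.01, 7.17 and 6.45 against 5.93, 5.65 and 5.42. Pdgfra stood at 6.69, 6.22 and 7.36 against 8.14, 7.90 and 8.02, so the groups were apart in opposite directions at these 2 stage markers.

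Of 15 astrocyte and Bergmann glia markers 3 rose, against 5.09% of all genes, and none fell. Gdf10, a Bergmann glia gene, stood at 7.34, 7.26 and 6.79 against 6.23, 5.87 and 6.16 and rose by 1.05 (SE 0.18, limma, adjusted p = 0.0272). Hepacam, a glial adhesion gene, rose by 0.90 (SE 0.22, limma, adjusted p = 0.0475). Hopx, a homeodomain gene of astroglia, rose by 0.74 (SE 0.14, limma, adjusted p = 0.0323). Gfap itself, the gene whose human promoter drives Cre, stood at 9.03, 8.96 and 8.16 against 6.78, 7.38 and 8.35 and was not called (limma, adjusted p = 0.0737), with YSGnr replicate 3 above YSGr replicate 3. None of 15 neural stem cell genes was called. Notch1, a receptor gene of stem cells, came nearest, at 6.19, 6.11 and 5.82 against 5.72, 4.23 and 4.63 (limma, adjusted p = 0.0583).

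Of 19 core genes of the Hippo pathway 1 was called, a share of the order of the 5.09% of all genes. It was Tead4, a TEAD factor gene near the detection limit, which stood at 1.25, 1.12 and 0.19 against -0.74, -0.58 and -0.95 and rose by 1.61 (SE 0.39, limma, adjusted p = 0.0460). Wwtr1, which encodes TAZ, a relative of YAP, stood at 5.0, 4.75 and 4.74 against 4.53, 4.44 and 4.37 and was not called (limma, adjusted p = 0.0973). Of 22 reported targets of YAP and TEAD 2 rose, against 5.09% of all genes, none fell, and the median difference was 0.13. Dlc1, a GTPase-activating protein gene, stood at 5.18, 5.0 and 4.43 against 3.85, 3.30 and 3.73 and rose by 1.24 (SE 0.22, limma, adjusted p = 0.0278). Ptpn14, a phosphatase gene and negative regulator of YAP, rose by 0.65 (SE 0.16, limma, adjusted p = 0.05). The most used reporters of YAP activity were not called, with a difference of -0.06 for Cyr61 and 0.05 for Ctgf, each with an SE of 0.40. Of 19 Notch pathway genes Jag2, a ligand gene, rose by 0.95, a share near the 5.09% of all genes. Of 21 Wnt pathway genes 3 rose, against 5.09% of all genes, namely the receptor gene Fzd5 by 1.44, Dkk3 by 0.92 and the ligand gene Wnt7a by 0.62.

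Some vessel and matrix genes rose in YSGr. Of 20 genes of collagens, laminins and the basement membrane 8 rose, against 5.09% of all genes, none fell and 15 had the YSGr libraries higher without overlap, against 15.0%, with a median difference of 0.52. Col4a2, a collagen IV chain gene of the basement membrane, stood at 7.35, 7.18 and 7.26 in YSGr and at 6.52, 6.50 and 6.52 in YSGnr and rose by 0.75 (SE 0.11, limma, adjusted p = 0.0267). Its libraries agreed closely within each group, and the SG mean of 7.86 ± 0.08 was above both. Hspg2, the perlecan gene, stood at 6.51, 6.26 and 5.54 against 5.23, 3.42 and 4.39 and rose by 1.76 (SE 0.41, limma, adjusted p = 0.0448). Col5a1, Fn1, Nid1, Nid2, Lamc1 and Col4a1 rose by 0.46 to 1.26. Relative to SG the list median was -0.07, -0.34 and -0.56 in YSGr and -0.85, -1.03 and -0.99 in YSGnr, so both groups were below SG and YSGnr was further below. Lama5, a laminin chain gene, went the other way in YSGr replicates 1 and 2, at 3.50, 3.95 and 6.86 against 7.81, 6.75 and 6.28, and was not called (limma, adjusted p = 0.0937).

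Of 15 endothelial markers 3 rose, against 5.09% of all genes, and the median difference was 0.23. Kdr, the gene of VEGF receptor 2, stood at 5.88, 5.70 and 5.17 against 4.32, 4.68 and 4.30 and rose by 1.15 (SE 0.19, limma, adjusted p = 0.0272). Flt1, the gene of VEGF receptor 1, rose by 0.99 (SE 0.21, limma, adjusted p = 0.0398), and Cdh5, the cadherin gene of endothelial junctions, by 0.90 (SE 0.17, limma, adjusted p = 0.0307). Pecam1 and Cldn5, which also define endothelium, were not called and had differences of -0.11 and 0.21, so the rise was not shared by the whole list. Of 16 pericyte, smooth muscle and fibroblast genes 4 rose, against 5.09% of all genes, and Pdgfra fell, against 0.879%. Col1a1, a collagen I chain gene, stood at 6.66, 6.39 and 5.47 against 4.78, 3.47 and 4.53 and rose by 1.91 (SE 0.37, limma, adjusted p = 0.0334). Col1a2, Fn1 and Pdgfrb rose by 1.13, 1.25 and 0.73. Of 7 muscle and bone genes 1 rose, against 5.09% of all genes, the cartilage collagen gene Col2a1, by 1.92 (SE 0.25, limma, adjusted p = 0.0222).

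Immune lists gave single calls or none. None of 15 homeostatic microglia markers was called, and their summed level was 254 to 354 CPM in YSGr and 216 to 520 CPM in YSGnr. C1qa, a complement gene made by microglia, stood at 4.25, 4.16 and 5.08 against 4.34, 6.09 and 6.01. The high libraries were YSGnr replicates 2 and 3, and YSGnr replicate 1, with high Xist, lay at the level of YSGr. The SG libraries, with low Xist, also lay near that level, with a mean of 4.53 ± 0.11. Aif1, which encodes IBA1, stood at 0.54, 0.62 and 2.10 against 1.40, 3.33 and 3.21, and B2m, the MHC class I light chain gene, at 4.91, 4.63 and 5.47 against 4.95, 6.12 and 6.26. None of these 3 was called (limma, adjusted p = 0.146, 0.101 and 0.140). Between the libraries with high Xist the difference was 0.16 for C1qa, -0.31 for Aif1 and 0.05 for B2m, and none was called. With YSGr replicate 3 and YSGnr replicate 1 left out it was -1.85, -2.69 and -1.42, and each was called.

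Some single immune genes were called. Flt3, a dendritic cell receptor gene that cerebellar neurons also express, stood at 3.33, 3.62 and 3.11 against 2.36, 2.72 and 2.16 and rose by 0.94 (SE 0.21, limma, adjusted p = 0.0403). Csf1, the growth factor gene of microglia, rose by 0.83, Cxcl12, a chemokine gene of meninges and vessels, by 0.79, and Sirpa, the receptor gene of the CD47 signal, by 0.83. Ifit2, an interferon-induced gene, stood at 3.04, 2.82 and 3.94 against 4.10, 4.70 and 4.52 and fell by 1.17 (SE 0.28, limma, adjusted p = 0.0460), the only called gene among 13 of the interferon response. Over all genes 0.879% fell. None of 15 MHC class I, 7 MHC class II, 14 complement or 8 border macrophage and monocyte genes was called. Of the lymphocyte and the neutrophil list 2 genes each were tested and none was called, with summed levels of at most 8.73 CPM and 24.9 CPM. Cd4, the coreceptor gene of helper T cells, stood at -0.26, -1.24 and 0.58 against -0.74, 1.80 and 2.18, and was called, at -2.74, without YSGr replicate 3 and YSGnr replicate 1 (limma, adjusted p = 0.000388). Its difference was 0.43 among the libraries with high Xist. Cxcr2, a neutrophil chemokine receptor gene, stood at 2.84, 3.00 and 2.93 against 4.54, 2.80 and 2.58, high in YSGnr replicate 1 alone.

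Some lists moved with single libraries. The 10 choroid plexus genes gave no call, and Ttr, the transthyretin gene secreted by the choroid plexus, stood at -1.01, 9.86 and -0.19 against 5.35, 10.13 and 10.51. YSGr replicate 2 and YSGnr replicates 2 and 3 were high, so choroid plexus transcripts were unequal within both groups. Replication-dependent histone genes gave no call among 20, and their median relative to SG was -1.18, -1.23 and 0.56 in YSGr and 5.30, 0.48 and 1.30 in YSGnr. YSGnr replicate 1, the library of low depth, held that peak alone, and the histone genes have near-identical copies. The median difference of the list was -3.01, and it was -6.11 without YSGnr replicates 2 and 3. Of 6 erythrocyte genes 1 fell, against 0.879% of all genes, namely Alas2, a heme synthesis gene, by 1.15 (SE 0.24, limma, adjusted p = 0.0378). Metabolic and stress lists gave few calls: Hk1 of 22 glycolysis and hypoxia genes rose by 0.97, Dhcr7 of 17 cholesterol synthesis genes by 0.55, Sesn2 and Trp73 of 18 genes of CDK inhibitors and p53 targets by 0.66 and 2.52, and Fam107a of 15 glucocorticoid response genes by 1.94. Dnmt3a, the DNA methyltransferase gene, rose by 0.83 as the called member of 19 oncofetal and chromatin genes, and En2, a cerebellar homeobox gene, by 0.93. Over all genes the share called higher was 5.09%. None of 13 mitochondrially encoded, 28 nuclear respiratory chain, 12 immediate early or 9 ciliary genes was called.

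Across the lists, 3 arrangements of the 6 libraries recurred. Genes such as Cbln3, Pcp2, Col4a2, Lpo and Olig3 had all 3 YSGr libraries well apart from the YSGnr libraries. Genes such as Gli1, Atoh1, Ccnd1 and Mcm5 set YSGr replicates 1 and 2 apart from the other 4 libraries. Genes such as C1qa and B2m were high in YSGnr replicates 2 and 3 and lower in the 4 libraries with high Xist. They were also lower in the SG libraries, where Xist was low, with means of 4.53 ± 0.11 and 5.21 ± 0.1. These groupings of genes were made after their values were seen and carry no test.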

How the data were processed

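Per the labels' protocols, RNA of tumour tissue was isolated by a Trizol method and sequenced by BGI on the DNBseq platform. The authors deposited log2 CPM values for 17482 genes in 9 libraries. The submitters' processing notes name Trimmomatic, RSEM, Bowtie2, Picard, edgeR and mm10 without their roles (annotation: not given in the sources used here). Deposited values carry the authors' scaling and an added count, which the shared minimum of -3.52 puts at a mean of 2.00 reads, so changes of low genes are understated. Reads and effective depths were back-calculated from it. Low values came out whole to within 0.02 reads at 63.6% to 71.9%, so no count test was run.

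A group-means model over the 9 libraries was fitted with limma 3.58.1 in R 4.3.3 (mean-variance trend, two-sided moderated test) and adjusted by Benjamini-Hochberg over 15251 genes. The steps were checked on simulated data with independent noise per gene and the same spread in all groups. That check cannot show how a tighter SG, or a shift of a library shared by many genes, acts on the calls. The largest 15 increases and decreases were named among called genes with groups apart and with a mean of 1 log2 CPM or more in the group with the higher level, without predicted genes, pseudogenes, antisense and sex-linked genes. The rule also names genes called in all 6 fits that left out a YSGr or YSGnr library, Yap1, sex-linked genes, and up to 4 called members or else 2 members of each of 49 lists (841 genes). Other list members in the text were chosen after their values were seen. The members and lists were chosen with earlier results of these data known. Lengths and coordinates are from GENCODE M21 (95.6% of symbols matched).

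Replicate numbers were not treated as pairs. Exact permutation of 3 against 3 libraries cannot give a p below 0.1, so no single-gene permutation test was run. Alternatives, 23 in all, covered filters, a pseudocount, scaling, the model, length and GC, the replicate block and left-out libraries. Values of some list members are not reported here.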

Additional observations from a re-analysis of the deposited data

How the results depend on the processing

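The counts of called genes, 776 higher and 134 lower, depended on the fit. They were 262 and 54 with median scaling, 501 and 67 without the mean-variance trend, 4688 and 4722 with array weights, and 609 and 72 without a filter. With the 6 libraries alone limma called 0 and 0, with 3368 genes at an unadjusted p below 0.05. Leaving out 1 library gave between 1 and 3387 genes higher and between 0 and 3141 lower, the highest counts without YSGr replicate 3. Without YSGr replicate 3 and YSGnr replicate 1 they were 4873 and 4994, and without YSGnr replicates 2 and 3 they were 155 and 64. The cause of these shifts was not tested.

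With the replicate number as a block the counts were 707 and 153, and 670 and 220 with length and GC trends removed as well. Same-numbered libraries had deviations correlated at 0.23, -0.15 and 0.21, 2 of 3 correlated best with their own number, and the numbers were not taken as pairs. Length and GC removal alone gave 716 and 190. The difference of Yap1 lay between 0.60 and 1.42 with 1 library left out and was called at 1.63 with array weights, at 1.42 without YSGr replicate 3 and at 1.59 without that library and YSGnr replicate 1. The 86 named and called genes kept their sign in every alternative in which they had a value. Some had no value with a stricter filter or with length and GC removed. Their groups did not overlap, so the fits with left-out libraries could not change the sign. Of the 86, 70 were called again with length and GC removed and 37 with median scaling.

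Values that changed sign belonged to genes that were not called. Without YSGnr replicates 2 and 3 the difference was -0.49 for Xist, 0.32 for Uty, 0.17 for Eif2s3y, 0.16 for C1qa, 0.43 for Cd4, 0.05 for B2m, 0.15 for Folr1 and 0.37 for Ndufa2. For Cxcr2 it was 0.10 with array weights, between -0.74 and 0.23 with 1 library left out (0.23 without YSGnr replicate 1), and 0.23 without that library and YSGr replicate 3. For Ptprc it lay between -0.08 (without YSGnr replicate 1) and 0.47 with 1 library left out. It was 0.04 for mt-Atp6 with quantile normalization. The depth of YSGnr replicate 1 limits every low gene in this comparison.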
